A study of Mus musculus with 5 samples.

Results

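Signal regulatory proteins (SIRPs) and the paired inhibitory receptors of myeloid cells were examined through 9 genes: *Sirpa*, *Sirpb1a*, *Sirpb1b*, *Sirpb1c*, *Cd47*, *Pirb*, *Pilra*, *Clec12a* and *Ptpn6*. They were taken by symbol from the 55487 genes of the count table, and all 9 were measured. The group was selected on the counts of *Sirpb1b*, which were above 0 in 1 genotype only, so the counts of *Sirpb1b* are given as a description with no test. The RNAseq libraries were made from macrophages of the aortas of male mice, labelled as CD45+ F4/80+ cells and, by the study's methods, also gated on CD11b. The mice received a chow diet for 8 weeks and a Western diet for 10 weeks. The 2 *Zeb1* WT/*Apoe* KO libraries came from *Zeb1* fl/fl mice without Cre. The 3 *Zeb1* ∆M/*Apoe* KO libraries came from *Zeb1* fl/fl mice with LysM-Cre, which is expressed from *Lyz2* and so acts in myeloid cells at large rather than in aortic macrophages alone. *Apoe* was knocked out in both genotypes. The study's methods state that the macrophages of 3 mice were mixed per genotype and condition. Its statistics section calls replicates biologically independent in general terms, but neither the labels nor the methods say from which mice each library came, so the p-values below measure the spread between libraries, part of which may be technical.

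SIRPα, encoded by *Sirpa*, is an inhibitory receptor of macrophages whose ligand CD47 is carried by most cells and signals that they should not be engulfed. Its cytoplasmic immunoreceptor tyrosine-based inhibitory motifs (ITIMs) recruit the phosphatases SHP-1, encoded by *Ptpn6*, and SHP-2, encoded by *Ptpn11*. The *Sirpb1* genes encode related receptors without ITIMs, which signal through the activating adaptor DAP12, encoded by *Tyrobp*. Such pairs of inhibitory and activating receptors recur among myeloid cells. PIR-B (*Pirb*), PILRα (*Pilra*) and the lectin CLEC12A (*Clec12a*) carry ITIMs, whereas the PIR-A receptors and PILRβ are the activating counterparts of PIR-B and PILRα.

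Total counts per library ranged from 20118545 to 50649912, and between 7395 and 20919 genes had at least 1 count. A floor of 3 counts corresponded to between 0.0597 and 0.248 CPM (counts relative to library size after TMM scaling). It covers counting error only, since PCR copies of a cDNA molecule are counted as separate reads. Values below are listed in the order *Zeb1* WT/*Apoe* KO replicates 1 and 2, then *Zeb1* ∆M/*Apoe* KO replicates 1, 2 and 3. *Zeb1* ∆M/*Apoe* KO replicate 1 stood apart from the others. It had 96 counts of *Gapdh* where the other 4 libraries had between 23196 and 50169, and 60292 and 133027 counts of the globin genes *Hba-a1* and *Hba-a2*, which were at 0 elsewhere. The macrophage marker *Cd68* had 10 counts in this library and 0 in *Zeb1* WT/*Apoe* KO replicate 1, against between 36172 and 46735 in the other 3. Levels and fold changes that rest on this library are also given without it. Of the macrophage markers, *Adgre1*, which encodes F4/80, was counted in all 5 libraries, from 1068 to 38190, whereas *Itgam*, which encodes CD11b, was at 0 in *Zeb1* ∆M/*Apoe* KO replicate 1 and between 33 and 3074 in the others. *Zeb1* was counted 0, 0, 22, 0 and 0 times, which does not check the genotypes, since a single exon is floxed and the count covers the whole gene. In whole sorted samples, fewer cells of a type and less RNA per cell cannot be told apart.

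*Sirpb1a*, *Sirpb1b* and *Sirpb1c* lie next to one another on the minus strand of chromosome 3 (GRCm38), from 15371653 to 15426520, from 15495751 to 15575065 and from 15795145 to 15848528. *Gm9733* lies from 15296551 to 15332302 and *Gm5150* from 15946870 to 16006437 on the same strand. Over the coding transcripts of 1499 bases that each of these 3 genes has (GENCODE M21), *Sirpb1b* and *Sirpb1c* were 98.6% identical, and *Sirpb1a* was 97.7% identical to each of them. *Gm5150* was between 74.2% and 74.5% identical to these 3 genes. The sequence below is the stretch of 75 bases, the read length, in which the 3 *Sirpb1* genes differ at the largest number of positions, and is shown because reads from it can be assigned to 1 gene. It lies in exon 2, and capitals mark the 10 positions at which the genes are not all the same.
*Sirpb1a*, chr3:15417001-15417075: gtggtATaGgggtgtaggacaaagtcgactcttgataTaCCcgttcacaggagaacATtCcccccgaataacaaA
*Sirpb1b*, chr3:15548755-15548829: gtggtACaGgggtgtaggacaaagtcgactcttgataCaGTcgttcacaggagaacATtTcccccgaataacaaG
*Sirpb1c*, chr3:15838773-15838847: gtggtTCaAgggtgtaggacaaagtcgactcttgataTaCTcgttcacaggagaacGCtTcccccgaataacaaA

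In exon 3, by contrast, a stretch of 75 bases had no differing position and reads from it match all 3 genes. It lies at chr3:15411268-15411342 in *Sirpb1a*, at chr3:15543015-15543089 in *Sirpb1b* and at chr3:15833005-15833079 in *Sirpb1c*.
Shared stretch: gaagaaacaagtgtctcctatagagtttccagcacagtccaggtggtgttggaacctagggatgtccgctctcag

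When all windows of 75 bases in the annotated transcripts of each gene were compared, 46.9% of those of *Sirpb1b* recurred in another gene, and 44.2% of all its windows recurred in *Sirpb1c*. For *Sirpb1c* and *Sirpb1a* these shares were 40.1% and 29.3%. *Sirpa*, *Gm5150*, *Gm9733* and *Clec12a* shared no window (0) with any other gene, and *Cd47* shared 0.0301% of its windows. Of the windows of *Pirb*, 26.9% recurred elsewhere, 14.0% in *Gm14548* and 13.2% in *Pira2*. *Pilra* shared 14.7%, and 12.2% of its windows recurred in *Zcwpw1*, while 1.73% recurred in *Pilrb1* and 1.05% in *Pilrb2*. *Ptpn6* shared 4.07%, all of it with *Gm20531*. RSEM divides reads that match several genes among them, so the split between *Sirpb1b* and *Sirpb1c*, and between *Pirb* and its relatives, is less certain than their sums.

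**Figure D1:**
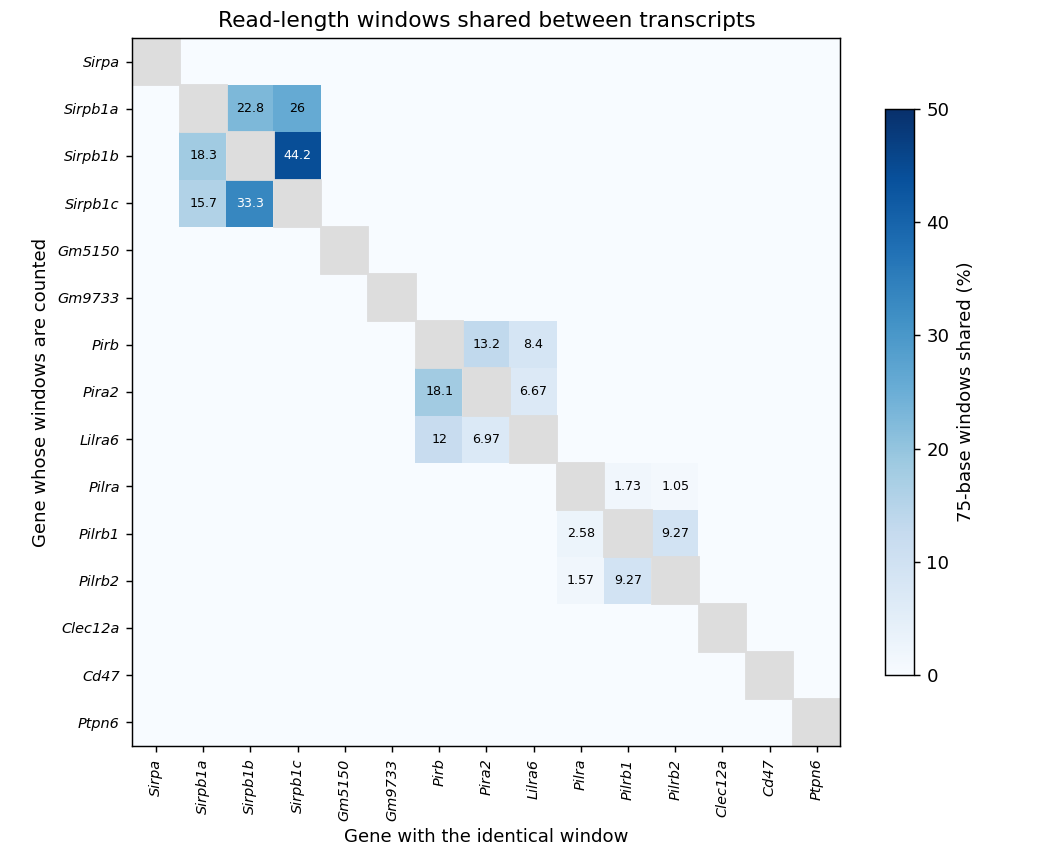
Percent of the 75-base windows of each gene (rows) that occur unchanged in the transcripts of another gene (columns), from the GENCODE M21 transcripts, with the gene against itself in grey and empty cells at 0. The 3 *Sirpb1* genes share between 15.7% and 44.2% of their windows pairwise, whereas *Sirpa* shares none with any gene shown.

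*Sirpb1b*, an activating SIRP, was counted in every *Zeb1* ∆M/*Apoe* KO library and in neither *Zeb1* WT/*Apoe* KO library. It was above 0 in 1 genotype only, which is how the group was chosen. Its counts were 0 and 0 against 17, 12933 and 16138. The 2 *Zeb1* ∆M/*Apoe* KO libraries with high counts were replicates 2 and 3, at 302 and 321 CPM, while replicate 1 was at 1.40 CPM. With a mean of 208 ± 179 CPM (SD, n = 3), the level was at least 2129-fold above the mean floor of 3 counts per *Zeb1* WT/*Apoe* KO library. Without *Zeb1* ∆M/*Apoe* KO replicate 1, the mean was 312 CPM, at least 3187-fold higher. Because *Sirpb1b* was the reason for the choice, no p is given. *Sirpb1c* met the same criterion, whereas *Sirpb1a* lay just outside it, with 2 counts in *Zeb1* WT/*Apoe* KO replicate 2. Of all genes tested, 8.25% were counted in 1 genotype only, and 7.67% in *Zeb1* ∆M/*Apoe* KO only, so the criterion is met by many genes.

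*Sirpb1c*, the closest relative of *Sirpb1b*, had 0 and 0 counts against 0, 1387 and 11741. It was high in replicate 3, lower in replicate 2 and at 0 in replicate 1 of *Zeb1* ∆M/*Apoe* KO, so the genotypes overlapped at 0. Its mean was 88.7 ± 127 CPM (SD, n = 3) in *Zeb1* ∆M/*Apoe* KO, at least 907-fold above the floor in *Zeb1* WT/*Apoe* KO. Without *Zeb1* ∆M/*Apoe* KO replicate 1, the mean was 133 CPM, at least 1360-fold above it, and without replicate 3 it was 16.2 CPM, at least 166-fold above it. Like *Sirpb1b*, *Sirpb1c* was above 0 in 1 genotype only and shares reads with it, so its values are a description and no p is given.

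*Sirpb1a* was close to absent, with 0 and 2 counts against 9, 2 and 19. Only *Zeb1* ∆M/*Apoe* KO replicates 1 and 3 exceeded 3 counts, and the genotypes overlapped. Summed over libraries and scaled to their size, the ratio of *Zeb1* ∆M/*Apoe* KO to *Zeb1* WT/*Apoe* KO was 8.86, with a 95% interval from 2.25 to 76.5 that covers counting error only. Without *Zeb1* ∆M/*Apoe* KO replicate 1, the ratio was 7.01 (1.71 to 61.7). Without replicate 2 it was 13.9 (3.51 to 121), and without replicate 3 it was 6.22 (1.36 to 57.8). The difference was not called, with an adjusted p of 1 (quasi-likelihood test of edgeR, Benjamini-Hochberg adjustment over 7905 genes) and p = 0.3 by exact permutation. *Sirpb1a* passed the filter only through *Zeb1* ∆M/*Apoe* KO replicates 1 and 3, where it was higher, so nothing is read from these p-values. The permutation test takes the difference of the mean log2 CPM, not the fitted fold change. It is two-sided over the 10 splits into 2 and 3 libraries, and cannot give a p below 0.1.

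The 2 neighbours of these genes, *Gm5150* and *Gm9733*, were each counted in both genotypes. *Gm5150* had 0 and 5134 counts against 0, 0 and 21551, and *Gm9733* had 79 and 0 against 0, 0 and 3697. Both were high in *Zeb1* ∆M/*Apoe* KO replicate 3 and at 0 in the other libraries of that genotype. Summed over *Sirpb1a*, *Sirpb1b* and *Sirpb1c*, the counts were 0 and 2 against 26, 14322 and 27898, and the genotypes did not overlap. Summed over all 5 genes of the cluster, they were 79 and 5136 against 26, 14322 and 53146, and the genotypes overlapped. Both sums hold *Sirpb1b*, so they too are a description.

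Which gene of the cluster was counted differed from library to library. The intervals given here cover counting error only, and neither PCR copies nor the division of shared reads by RSEM. *Gm9733* held 100% of the 79 counts in *Zeb1* WT/*Apoe* KO replicate 1 (95% Wilson interval 95.4% to 100%), and *Gm5150* held 99.96% of the 5136 counts in replicate 2. Within *Zeb1* ∆M/*Apoe* KO, *Sirpb1b* held 65.4% of 26 counts in replicate 1 (46.2% to 80.6%), 90.3% of 14322 in replicate 2 (89.8% to 90.8%) and 30.4% of 53146 in replicate 3 (30.0% to 30.8%). *Gm5150* was the gene with the largest share in replicate 3, at 40.6%. Between *Sirpb1b* and *Sirpb1c* alone, the share of *Sirpb1b* was 90.3% in replicate 2 and 57.9% in replicate 3 (57.3% to 58.5%), with 44.2% of the windows of *Sirpb1b* shared between them.

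**Figure D2:**
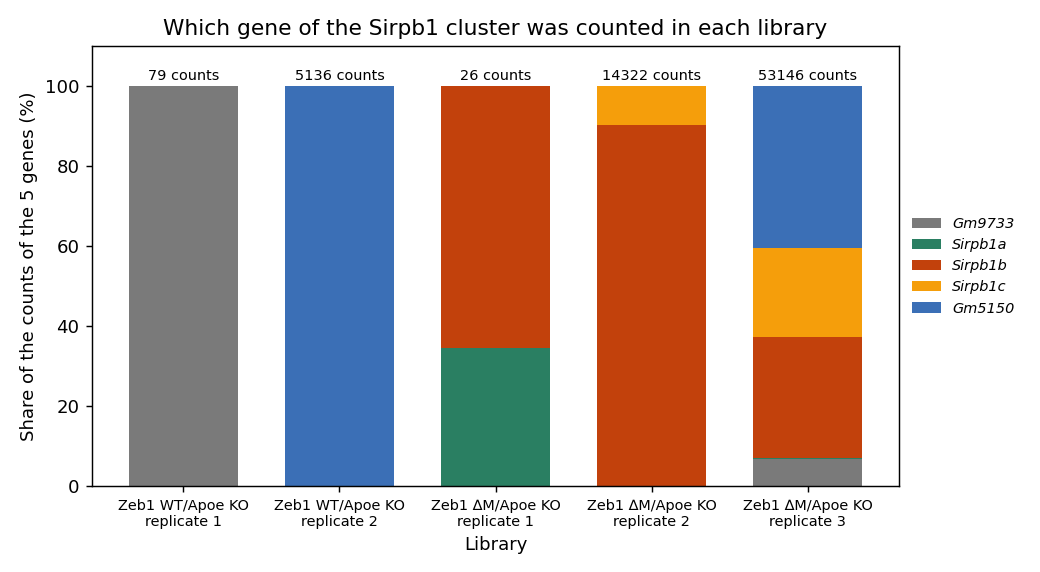
Share (%) of the counts of the 5 genes of the *Sirpb1* cluster held by each gene, stacked for each library, with the summed counts above each bar. *Gm9733* or *Gm5150* makes up nearly the whole bar for *Zeb1* WT/*Apoe* KO, while *Sirpb1b* holds between 30.4% and 90.3% for *Zeb1* ∆M/*Apoe* KO, whose replicate 1 has 26 counts.

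*Sirpa*, the inhibitory SIRP, lies on chromosome 2 from 129592835 to 129632228 on the plus strand. Its counts were 93 and 752 against 15804, 305 and 8596. *Zeb1* ∆M/*Apoe* KO replicates 1 and 3 were above both *Zeb1* WT/*Apoe* KO libraries and replicate 2 lay between them, so the genotypes overlapped. Levels averaged 12.6 ± 13.0 CPM (SD, n = 2) and 494 ± 706 CPM (SD, n = 3), and the log2 fold change was 5.29 (SE 4.73, edgeR adjusted p = 1; exact permutation p = 0.3). The highest level, 1304 CPM, came from *Zeb1* ∆M/*Apoe* KO replicate 1, the library in which erythrocyte genes summed to 16147 CPM (3 of 4 markers over 3 counts, between 0 and 2.72 CPM in the other libraries, *Hbb-bt* at 0 in all). The gate was on CD45, CD11b and F4/80, yet these erythrocyte genes were counted. The part of erythrocyte RNA in this level was not tested. Without that library, the *Zeb1* ∆M/*Apoe* KO levels of *Sirpa* were 7.13 and 171 CPM, and its log2 fold change was 2.71. In the same library *Sirpa* made up 99.6% of all counts of the 9 genes.

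*Cd47*, the ligand of SIRPα, lies on chromosome 16 from 49800533 to 49915010. It was counted 3462 and 18716 times against 2, 12876 and 31833 times. *Zeb1* ∆M/*Apoe* KO replicate 1, where *Sirpa* was highest, was nearly devoid of it, and the other 4 libraries overlapped. Its levels averaged 334 ± 295 CPM (SD, n = 2) and 312 ± 317 CPM (SD, n = 3). Fitted with edgeR, the log2 fold change was −0.10 (SE 3.61, adjusted p = 1), while the difference of the mean log2 CPM was −2.90 (exact permutation p = 0.9). Leaving out 1 library at a time gave values from −1.16 without *Zeb1* ∆M/*Apoe* KO replicate 3 to 1.34 without *Zeb1* WT/*Apoe* KO replicate 2. In the latter fit the median of all genes tested was 6.32. The SE leaves room for changes of several log2 units in either direction.

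*Pirb*, on chromosome 7 from 3711409 to 3720391, encodes an inhibitory receptor for MHC class I molecules. It had 1276 and 34 counts against 22, 74 and 15380. A single library of each genotype was high, and the genotypes overlapped. The log2 fold change was 2.13 (SE 5.24, edgeR adjusted p = 1; exact permutation p = 0.8). It fell to −3.63 without *Zeb1* ∆M/*Apoe* KO replicate 3. Without *Zeb1* WT/*Apoe* KO replicate 1 it was 6.83, where the median of all genes tested was 6.42. *Pira2*, an activating PIR-A gene, was counted 3 and 0 times against 0, 0 and 25683 times, so the activating partner was also high in *Zeb1* ∆M/*Apoe* KO replicate 3 and at or under 3 counts in the others. Of the windows of *Pira2*, 88.3% recurred in other genes. The related *Lilra6* had between 0 and 6 counts in every library.

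*Pilra*, on chromosome 5 from 137821952 to 137836281, had 4708 and 6026 counts against 5, 637 and 50685. The *Zeb1* WT/*Apoe* KO libraries were close together, at 170 and 175 CPM. The *Zeb1* ∆M/*Apoe* KO libraries lay on both sides of them, at 0.413, 14.9 and 1009 CPM. The fitted log2 fold change was 0.98 (SE 3.87, edgeR adjusted p = 1), while the difference of the mean log2 CPM had the opposite sign, −3.17 (exact permutation p = 0.6). Without *Zeb1* ∆M/*Apoe* KO replicate 3, the fitted value was −4.50. The activating partners *Pilrb1* and *Pilrb2* had 2 and 10338 counts against 2, 0 and 9967, and 16062 and 11008 counts against 1, 0 and 19072. *Pilra* made up 22.7% and 35.4% of the counts of *Pilra* and *Pilrb2* in *Zeb1* WT/*Apoe* KO, and 72.7% in *Zeb1* ∆M/*Apoe* KO replicate 3 (95% Wilson interval 72.3% to 73.0%). Of the counts of *Pilra* and *Pilrb1*, it made up 99.96% and 36.8% in *Zeb1* WT/*Apoe* KO and 83.6% in *Zeb1* ∆M/*Apoe* KO replicate 3, which lay between them. In *Zeb1* ∆M/*Apoe* KO replicate 2, *Pilra* was counted and both partners were at 0.

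*Clec12a*, on chromosome 6 from 129342691 to 129365303, had 0 and 8470 counts against 0, 5104 and 33296. In each genotype, replicate 1 was at 0 and the remaining libraries were above 1000 counts. The log2 fold change was 1.08 (SE 4.13, edgeR adjusted p = 1; exact permutation p = 0.8), and was −1.05 without *Zeb1* ∆M/*Apoe* KO replicate 3. Neutrophils also express *Clec12a*, *Pirb* and *Pilra*. Summed neutrophil markers were at 2617 and 1135 CPM against 2785, 1259 and 139 CPM. The gate was on F4/80, yet some of these markers were counted. The part of neutrophil RNA in the receptor counts was not tested. Of 9 neutrophil markers, between 3 and 5 exceeded 3 counts per library, with *Ly6g* at 0 or 1 and *Camp* and *Ngp* at 0 in all. Of 5 dendritic cell markers, *Cd209a* alone was high in *Zeb1* ∆M/*Apoe* KO replicate 3, with 21805 counts, while *Flt3*, *Zbtb46*, *Xcr1* and *Clec9a* were at 0 there. The part of *Cd209a*+ cells in the levels of that library was not tested.

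*Ptpn6*, on chromosome 6 from 124720707 to 124738714, encodes SHP-1, the phosphatase on which these ITIM receptors converge. Its counts were 340 and 8643 against 5, 245 and 27443. It was high in replicate 2 of *Zeb1* WT/*Apoe* KO and in replicate 3 of *Zeb1* ∆M/*Apoe* KO, and the genotypes overlapped. The fitted log2 fold change was 0.48 (SE 4.25, edgeR adjusted p = 1) and the difference of the mean log2 CPM was −2.28 (exact permutation p = 0.6). Leaving out *Zeb1* ∆M/*Apoe* KO replicate 3 gave −5.41. Leaving out *Zeb1* WT/*Apoe* KO replicate 2 gave 3.94, where the median of all genes tested was 6.32. *Ptpn11*, which encodes SHP-2, was counted 0 and 0 times against 20, 463 and 0 times.

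The adaptors *Tyrobp* and *Fcer1g* were counted at high levels in every library. The first, which encodes DAP12, had 1623 and 1616 CPM against 18955, 3083 and 2452 CPM. All *Zeb1* ∆M/*Apoe* KO libraries were above both *Zeb1* WT/*Apoe* KO libraries, with a log2 fold change of 2.33 (SE 2.02, edgeR adjusted p = 1; exact permutation p = 0.3). Without *Zeb1* ∆M/*Apoe* KO replicate 1, it was 0.56 for *Tyrobp*, with means of 1620 and 2768 CPM. *Fcer1g*, which encodes the Fc receptor γ chain used by the PIR-A receptors, had 6411 and 2051 CPM against 4322, 4065 and 4273 CPM, and the genotypes overlapped.

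**Figure D3:**
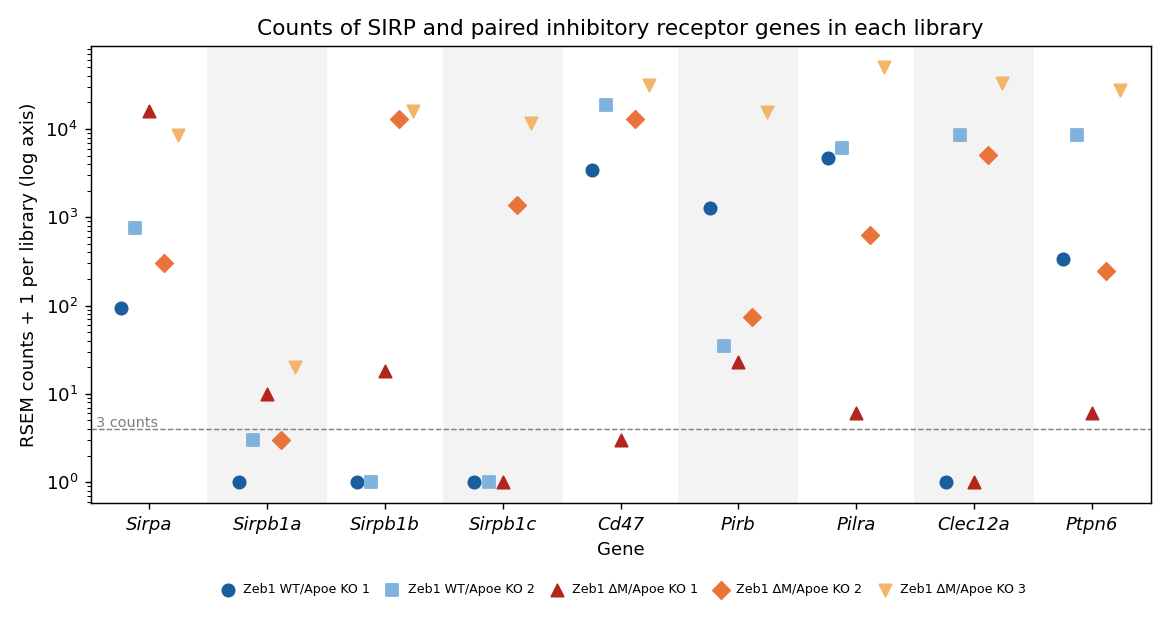
Counts + 1 (log axis) of the 9 genes in each library, with blue symbols for *Zeb1* WT/*Apoe* KO and red to yellow symbols for *Zeb1* ∆M/*Apoe* KO; the dashed line is at 3 counts. The genotypes are separate for *Sirpb1b* only, and *Zeb1* ∆M/*Apoe* KO replicate 3 is the highest library for all genes other than *Sirpa*.

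Counted by library, 5 and 6 of the 9 genes exceeded 3 counts in *Zeb1* WT/*Apoe* KO, and 6, 8 and 9 did so in *Zeb1* ∆M/*Apoe* KO. Part of this was fixed by the choice of *Sirpb1b* and by *Sirpb1c*, which met the same criterion. Of the 7 genes counted in both genotypes, 5 and 6 against 5, 6 and 7 exceeded 3 counts. Of all 7905 genes tested, 60.9% and 60.4% against 77.6%, 49.4% and 62.3% exceeded 3 counts. At least 1000 counts were reached by 3 and 4 against 1, 4 and 8 of the 9 genes, and by 3 and 4 against 1, 2 and 6 of those 7. Of all genes tested, 14.2% and 37.1% against 5.91%, 28.4% and 36.7% reached this level. *Zeb1* ∆M/*Apoe* KO replicate 3 thus held 8 of 9 genes at it, beside 36.7% of all genes tested. It was also the library with the largest total. Per kilobase of the longest coding transcript, the gene with the highest level of the 9 was *Pilra* (66.1 CPM per kb) in *Zeb1* WT/*Apoe* KO replicate 1 and *Ptpn6* (109 CPM per kb) in replicate 2, just above *Cd47* (103 CPM per kb). In *Zeb1* ∆M/*Apoe* KO it was *Sirpa* (327 CPM per kb), *Sirpb1b* (202 CPM per kb) and *Pilra* (391 CPM per kb) in replicates 1, 2 and 3. The order of the genes was therefore not kept between libraries of 1 genotype.

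Between genotypes, edgeR called 0 of the 9 genes, and 0 of 7905 genes overall (0%). At an unadjusted p under 0.05, it gave 86 genes (1.09%) and 0 of the 9. DESeq2 with default options gave an adjusted p for 5 of the 9 and called 2 of them, *Sirpb1b* and *Sirpb1c*, where it called 12.1% of the genes it tested. limma-voom with sample quality weights called the same 2, where it called 2.96% of genes. Nothing is read from these calls, since both genes were at 0 in *Zeb1* WT/*Apoe* KO and the choice rested on that. CPM values of the genotypes did not overlap for 1 of the 9 genes, *Sirpb1b* again, and for 11.2% of all genes tested (6.68% higher in *Zeb1* ∆M/*Apoe* KO). For the 7 genes counted in both genotypes, the median log2 fold change was 1.08, with 6 of 7 above 0. That of all genes tested was 0.78, with 60.9% above 0. *Sirpb1a*, 1 of the 6, passed the filter only through *Zeb1* ∆M/*Apoe* KO libraries.

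Leaving out each library in turn left between 2 and 3 of the 9 genes without overlap (22.2% to 33.3%), *Sirpb1b* among them by the choice made. Over all genes tested, the share without overlap was 39.4% and 29.5% without *Zeb1* WT/*Apoe* KO replicates 1 and 2, and 24.2%, 22.5% and 20.5% without *Zeb1* ∆M/*Apoe* KO replicates 1, 2 and 3. *Sirpb1c* was added when *Zeb1* ∆M/*Apoe* KO replicate 1 was left out. *Sirpa* and *Sirpb1a* were added, as higher in *Zeb1* ∆M/*Apoe* KO, when replicate 2 of either genotype was left out. *Pilra* and *Ptpn6* were added, as lower in *Zeb1* ∆M/*Apoe* KO, when *Zeb1* ∆M/*Apoe* KO replicate 3 was left out, and *Pirb*, as higher, when *Zeb1* WT/*Apoe* KO replicate 1 was. The fitted fold changes of *Pirb*, *Pilra*, *Clec12a* and *Ptpn6* turned negative without *Zeb1* ∆M/*Apoe* KO replicate 3, and that of *Ptpn6* also without *Zeb1* WT/*Apoe* KO replicate 1 (−0.32).

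**Figure D4:**
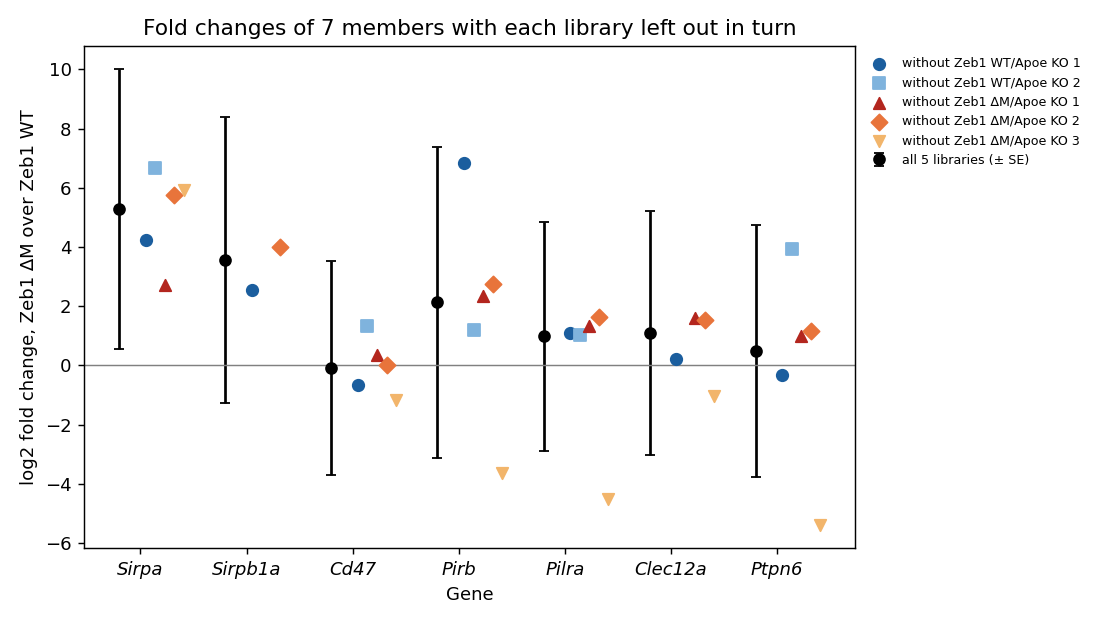
Fitted log2 fold change of 7 genes, *Zeb1* ∆M/*Apoe* KO over *Zeb1* WT/*Apoe* KO, from all 5 libraries (black, ± SE) and with each library left out in turn (coloured); values with no count left in *Zeb1* WT/*Apoe* KO are not drawn, nor are *Sirpb1b* and *Sirpb1c*, which had none at all. Without *Zeb1* ∆M/*Apoe* KO replicate 3, *Pirb*, *Pilra*, *Clec12a* and *Ptpn6* fall to between −1.05 and −5.41.

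Genes related by role were read from 3 lists. Of 14 genes of SIRP-CD47 signalling, *Ptpn6* among them, 11 were tested, edgeR called 0, and 10 of 11 had a log2 fold change above 0, as were 60.9% of all genes tested (median 0.72, all genes tested 0.78). Among the most abundant were the adaptors *Skap2* and *Fyb* and the SRC-family kinase *Lyn*. *Lyn* had 8 and 7963 counts against 9, 18859 and 8291. Replicate 1 of each genotype was under 10 counts and the genotypes overlapped. *Skap2* had 13949 and 4092 counts against 21, 20431 and 25522, and *Fyb* had 64 and 14134 against 4520, 4655 and 7877.

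Of 16 other inhibitory receptors, 13 were tested and edgeR called 0. Their median log2 fold change was −1.16, with 2 of 13 above 0, where 60.9% of all genes tested were. The most abundant were *Fcgr2b*, the inhibitory IgG receptor, *Cd300a*, *Lilrb4a* and *Ceacam1*. *Fcgr2b* had 8882 and 27562 counts against 17, 22517 and 10585, and *Lilrb4a* had 11767 and 12721 against 32, 15851 and 6509. *Cd300a* had 1 and 6222 counts against 0, 0 and 60393, and *Ceacam1* had 0 and 13247 against 48, 22067 and 16895. For each of the 4, the genotypes overlapped and *Zeb1* ∆M/*Apoe* KO replicate 1 had at most 48 counts. At least 1000 counts were reached by 4 and 14 of the 16 genes in *Zeb1* WT/*Apoe* KO, and by 0, 5 and 11 in *Zeb1* ∆M/*Apoe* KO. Of all genes tested, 14.2% and 37.1% against 5.91%, 28.4% and 36.7% reached it, also highest in *Zeb1* WT/*Apoe* KO replicate 2. T cell markers were also highest in *Zeb1* WT/*Apoe* KO replicate 2, at a sum of 4112 CPM (5 of 6 over 3 counts) against 7.78 CPM in replicate 1 and between 4.87 and 876 CPM in *Zeb1* ∆M/*Apoe* KO. The gate described for these macrophages would leave out most T cells, and the part of T cell RNA in the receptor counts was not tested.

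Of 21 activating receptors and adaptors measured, 16 were tested and edgeR called 0, with a median log2 fold change of 1.69 and 10 of 16 above 0, beside the same 60.9%. Genotypes did not overlap for 2 of the 16, *Tyrobp* and *Clec7a*, both higher in *Zeb1* ∆M/*Apoe* KO, a share of 12.5% beside the 11.2% of all genes tested. *Clec7a*, named here after its values were seen, encodes the β-glucan receptor Dectin-1 and had 0 and 0 counts against 7, 5363 and 15746, high and low in the same libraries as *Sirpb1b*. Besides the adaptors *Tyrobp* and *Fcer1g*, the most abundant were *Cd300ld*, with 66 and 34457 counts against 56, 46624 and 27841, and *Lilr4b*, with 5128 and 5904 against 33, 70782 and 20922.

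**Figure D5:**
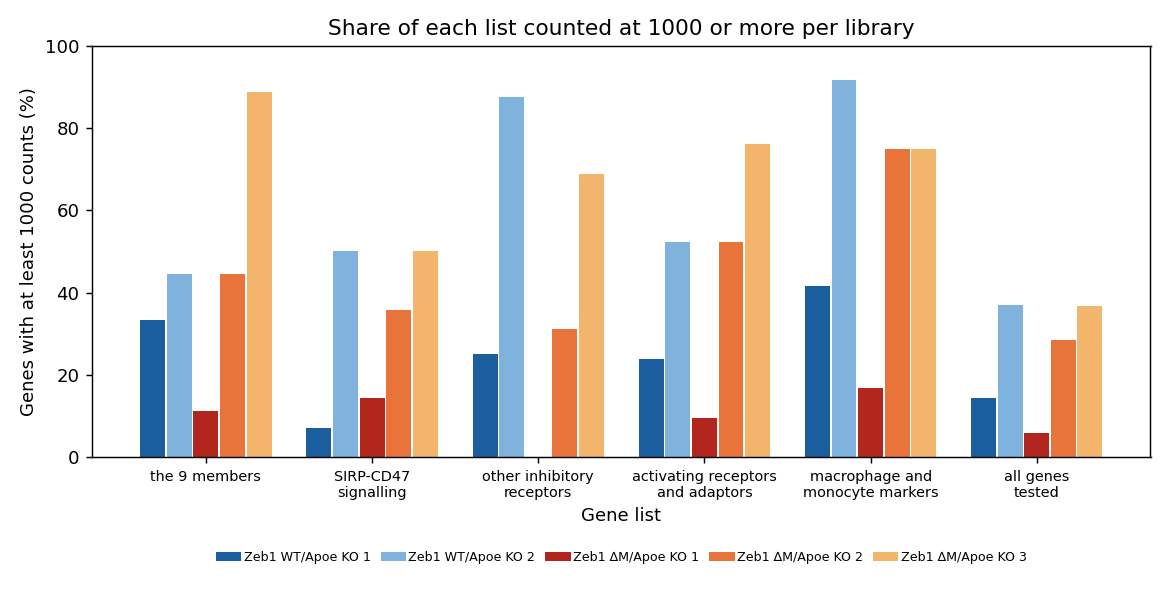
Percent of the genes of each list that had at least 1000 counts, for each library, with all 7905 genes tested at the right. *Zeb1* ∆M/*Apoe* KO replicate 1 (dark red) is the lowest or next to lowest library in each list drawn, and for the 9 genes *Zeb1* ∆M/*Apoe* KO replicate 3 is the highest.

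Promoter sequences of RefSeq (GRCm38.p6), from 250 bases before to 50 bases after the start, covered 8 of the 9 genes. The windows of *Sirpb1b* and *Sirpb1c* were 98.1% identical over 259 aligned bases, and that of *Sirpb1a* was 95.7% and 95.6% identical to them. The block of 120 bases below is shown because *Sirpb1a* stayed at or under 19 counts in every library, while *Sirpb1b* and *Sirpb1c* exceeded 1000 counts in replicates 2 and 3 of *Zeb1* ∆M/*Apoe* KO, and their upstream sequences differ at few positions. Capitals mark the 8 positions at which they are not all the same. The last base lies 94, 1 and 42 bases before the RefSeq start of *Sirpb1a*, *Sirpb1b* and *Sirpb1c*. By the GENCODE coordinates given above, each gene begins at the base next to the block.
*Sirpb1a*, chr3:15426521-15426640: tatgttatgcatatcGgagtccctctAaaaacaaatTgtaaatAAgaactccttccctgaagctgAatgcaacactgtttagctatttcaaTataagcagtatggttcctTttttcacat
*Sirpb1b*, chr3:15575066-15575185: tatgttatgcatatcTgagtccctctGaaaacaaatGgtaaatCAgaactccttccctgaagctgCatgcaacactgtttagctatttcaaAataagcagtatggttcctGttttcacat
*Sirpb1c*, chr3:15848529-15848648: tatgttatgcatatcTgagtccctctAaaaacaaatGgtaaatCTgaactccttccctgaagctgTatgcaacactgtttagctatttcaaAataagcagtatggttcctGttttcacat

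ZEB1, the factor deleted in the *Zeb1* ∆M/*Apoe* KO mice, binds E-boxes of the letters CACCTG, which read from the other strand as CAGGTG. On either strand these letters were in the windows of 2 of the 8 genes, *Pirb* and *Ptpn6*, and of 22.6% of the 27025 genes in the promoter table. The windows of *Sirpb1a*, *Sirpb1b* and *Sirpb1c* did not hold them. The motif in *Pirb* and *Ptpn6* is shown in capitals with 15 bases on either side, on the minus strand, 205 and 119 bases before the RefSeq start.
*Pirb*, chr7:3720572-3720607: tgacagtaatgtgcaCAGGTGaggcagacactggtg
*Ptpn6*, chr6:124738813-124738848: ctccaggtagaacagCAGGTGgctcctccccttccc

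The core GAGGAA, which reads from the other strand as TTCCTC, of the sites of PU.1, a factor of the myeloid lineage, was in the windows of 3 of the 8 genes, *Pirb*, *Pilra* and *Clec12a*, and of 31.3% of all genes. These letters say nothing on whether either factor binds in aortic macrophages.

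By Pearson's r of log2 CPM over the 5 libraries, which share their depth and amplification, the 5 genes most like *Sirpb1b* were *Vps25*, *Srsf4*, *Ipo11*, *Rab7b* and *Gpr34*, with r between 0.9986 and 0.9999. *Vps25*, a subunit of the ESCRT-II complex, had 0 and 0 counts against 12, 6402 and 8971. *Rab7b*, a lysosomal RAB protein, had 0 and 1 counts against 16, 12415 and 21554. In all, 172 genes had an r over 0.95 with *Sirpb1b*, and 293 did without *Zeb1* ∆M/*Apoe* KO replicate 1. Nothing of shared function or control follows from this. The 5 genes most like *Sirpa* were *Ctu2*, *Sirpb1a*, *Itgav*, *Akr1b3* and *Gm43123*, with r between 0.984 and 0.990, and 60 genes had an r over 0.95. Over the 4 libraries other than *Zeb1* ∆M/*Apoe* KO replicate 1, r of these 5 genes was between 0.960 and 0.984, and 104 genes exceeded 0.95. *Ctu2* had 0 and 69 counts against 111356, 0 and 2251, and *Itgav*, the integrin αV subunit, had 0 and 29 against 3856, 0 and 2622. Both were highest in *Zeb1* ∆M/*Apoe* KO replicate 1, as *Sirpa* was.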

How the data were processed

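RNAseq of aortic macrophages was analysed in 2 *Zeb1* WT/*Apoe* KO and 3 *Zeb1* ∆M/*Apoe* KO libraries, grouped by the genotype in their labels. Libraries were made with SMART-Seq v4. Per the submitters' processing notes, reads were mapped to GRCm38 with STAR 2.5.3a and quantified with RSEM 1.3.0. The authors deposited RSEM expected counts per gene as whole numbers, without normalization.

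Genes were filtered with filterByExpr (7905 kept), scaled with TMM and tested with edgeR 4.0.16 (quasi-likelihood, Benjamini-Hochberg, threshold 0.05). Alternatives were DESeq2 1.42.0, limma-voom (limma 3.58.1), RLE, upper-quartile and total-count scaling, other filters, a replicate block and each library left out. Single genes were compared with an exact permutation test on log2 CPM with a prior count of 2. The edgeR, DESeq2 and limma-voom tests were checked on simulated data, and the permutation test was not.

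Transcripts and coordinates were from GENCODE M21 (GRCm38), promoters from RefSeq, and alignments from mafft 7.526. The protein identities that were planned were not computed, and transcript identity was used instead. Genes named were the 9 members, the other genes of the *Sirpb1* cluster, paired receptors, adaptors, checks, the 4 most abundant genes per list and the 5 most alike, of which 1 is not reported here. The motifs were chosen after the counts were seen. The members and lists were chosen with earlier results of these data known.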

Additional observations from a re-analysis of the deposited data

How the results depend on the processing

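No call stood under edgeR, and the sign of most fold changes depended on single libraries. Of 84 alternative fold changes of the 7 genes counted in both genotypes, 65 kept their sign and 19 turned. *Sirpa* and *Sirpb1a* kept it in the 13 and 10 alternatives that gave a value. *Sirpb1a* gave a value only where *Zeb1* ∆M/*Apoe* KO replicates 1 and 3, its highest libraries, were both kept, so its sign is not read as stable. The sign of *Sirpb1b* and *Sirpb1c*, at 0 in *Zeb1* WT/*Apoe* KO, could not turn. Over all genes, DESeq2 called 790, limma-voom 234 and DESeq2 without *Zeb1* ∆M/*Apoe* KO replicate 1, chosen after seeing the data, 2328 genes, which are 12.1%, 2.96% and 30% of those they tested. Each of these called 2 genes, of 5, 9 and 8 of the group that it tested, *Sirpb1b* and *Sirpb1c*, which had no count in *Zeb1* WT/*Apoe* KO and whose calls are not read as tests.

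The log2 fold change of *Cd47* turned to 0.15 with limma-voom and to 0.32 with no filter. With limma-voom, *Pilra* turned to −0.51 and *Ptpn6* to −0.035. With upper-quartile factors, *Pirb* turned to −3.84, *Pilra* to −4.21 and *Ptpn6* to −1.59, while *Cd47* moved to −3.62. Leaving out 1 library at a time gave ranges of 2.71 to 6.67 for *Sirpa*, 2.53 to 6.41 for *Sirpb1a* (not tested without *Zeb1* ∆M/*Apoe* KO replicate 1 or 3, which hold most of its counts), −1.16 to 1.34 for *Cd47*, −3.63 to 6.83 for *Pirb*, −4.50 to 1.62 for *Pilra*, −1.05 to 16.16 for *Clec12a* and −5.41 to 3.94 for *Ptpn6*. Without *Zeb1* WT/*Apoe* KO replicate 2, the highest values of *Sirpb1a* and *Clec12a* are against a single library at 0, and a lone library is assumed to vary like the others. The number of the 9 genes without overlap between genotypes, 1 with all libraries, ranged from 2 to 3 with a library left out, where 20.5% to 39.4% of all genes tested had none. The fitted sum of the *Sirpb1* genes, a description since it holds *Sirpb1b*, moved from 13.13 to 2.61 with all 5 genes of the cluster, and, chosen after seeing the data, to 2.56 with *Gm5150* and 7.78 with *Gm9733* added; leaving out 1 library gave 12.28 to 16.35. The causes of these changes were not tested. A filter of at least 10 counts in every library kept only *Sirpa* and *Pirb* of the 9 genes.

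Replicate numbers 1 and 2 occur in both genotypes, but 2 pairs share only a number. The difference between replicates 1 and 2 had a correlation of 0.18 across genes between the genotypes. Replicate 3 occurs in *Zeb1* ∆M/*Apoe* KO only. With the replicate number as a block, replicate 3 has a term of its own, and the comparison of genotypes rests on replicates 1 and 2. In this fit, edgeR called 0 genes and 0 of the 9. The values of *Pirb*, *Pilra*, *Clec12a* and *Ptpn6* turned to −1.93, −6.09, −0.88 and −5.17, and that of *Cd47* moved to −5.10.

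The median log2 fold change of all genes shifted by 0.46 with RLE, −0.49 with upper-quartile factors and −0.65 with total counts. Single genes moved by more. With no filter the median shifted by 1.76. Without *Zeb1* WT/*Apoe* KO replicates 1 and 2 it shifted by 5.64 and 5.54, to 6.42 and 6.32. High fold changes of single genes without either library are to be read beside these medians. With a common dispersion of 6.44, the SE of the log2 fold change was between 3.61 and 5.24 for the 7 genes counted in both genotypes.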
